A study of Daucus carota with 6 samples.

Results

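Heat shock proteins and other molecular chaperones were followed in fleshy roots of carrot (Daucus carota), in genes chosen by their protein description. Members were the rows of the deposited table whose description from the NR protein database holds "heat shock protein", "heat shock cognate", "kDa heat shock", "BAG family", "chaperonin", "chaperone protein" or "heat stress transcription factor". These words took 118 of 35073 genes: 36 DnaJ proteins, 20 heat stress transcription factors, 18 small heat shock proteins (small HSP), 9 HSP70, 9 BAG proteins, 9 chaperonins, 8 HSP100, 7 HSP90 and 2 co-chaperones. Roots came from carrots stably transformed with CYP76AD1S, cDOPA5GTS and DODA1S, which accumulate the red pigment betanin (BC, 3 samples), and from non-transgenic carrots (WT, 3 samples). The sources used here do not give the promoters of the introduced genes, the number of transgenic lines, the cultivar, the plants' age or the growth temperature. They also do not say if the 3 samples of each group are different plants, and the p-values therefore cover the spread among the samples alone, which may be technical.

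Chaperones bind unfolded proteins and keep them from clumping. HSP70 does so in cycles driven by ATP, together with DnaJ partners that bring it clients, and hands proteins on to HSP90 or to the barrel-shaped chaperonins. Small HSP hold unfolding proteins without ATP, HSP100 pulls aggregated proteins apart, and heat stress transcription factors switch many of these genes on when plants are stressed. BAG proteins bind HSP70 and help it to release its client.

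Levels are in FPKM, in which fragments are divided by transcript length and by library size, so levels of different genes can be set side by side. Fold changes are differences of log2(FPKM + 1), BC minus WT, fitted with limma over the genes that reached 1 FPKM in 3 or more of the 6 samples, and p-values were adjusted over all of them by the Benjamini-Hochberg method (BH). A gene is called, and is said to have risen or fallen, at an adjusted p below 0.05. The summed FPKM of all genes was 1184880 to 1287460 in BC and 1141950 to 1186760 in WT, the read depth is unknown, and Pearson correlations across genes were 0.953 to 0.979 within BC, 0.974 to 0.988 within WT and 0.826 to 0.853 between the groups. In whole roots, fewer cells of a type and less RNA per cell cannot be told apart.

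Of the 118 chaperone genes 104 were tested, and 18 rose and 32 fell in BC roots. The share called, 48.1%, was near the 46.4% of all 21033 tested genes. By direction, 17.3% of the tested members rose and 30.8% fell, against 22.8% and 23.5% of all tested genes. The median log2 fold change was -0.18 over the members and -0.02 over all tested genes. Without any overlap between groups, 22 tested members were higher and 41 lower in BC, where 27.1% and 30.0% of all tested genes stood apart in this way. Rescaling the samples to equal totals moved the median of all tested genes to -0.11. Then 14 members rose and 36 fell, while over all tested genes 4059 rose and 5647 fell, against 4806 and 4943 without rescaling.

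**Figure D1:**
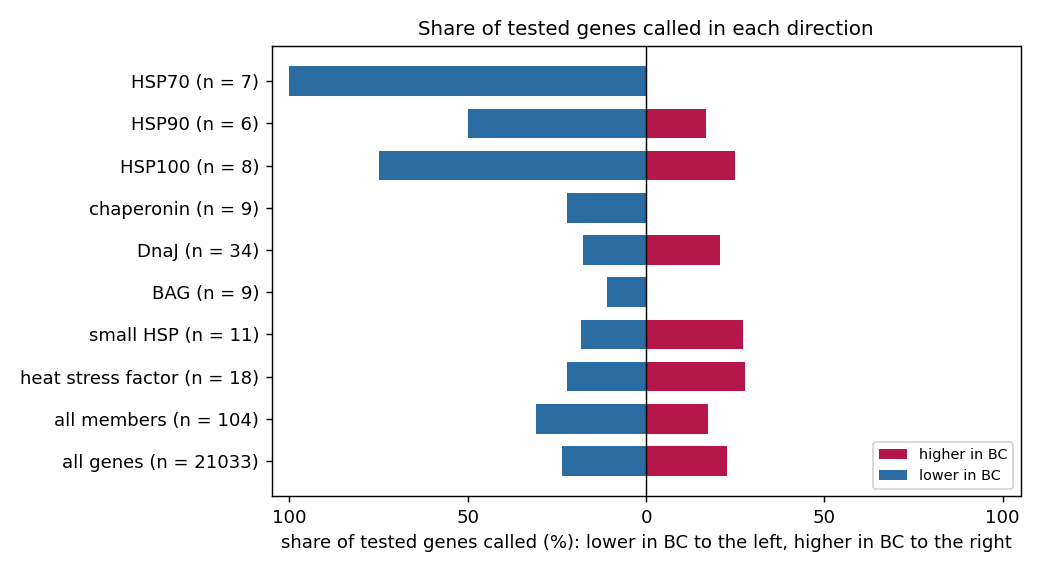
Share of tested genes called by limma in each chaperone class, in all 104 tested members and in all 21033 tested genes, in percent; bars to the right are genes higher in BC and bars to the left genes lower in BC. All 7 tested HSP70 genes were lower in BC, and the co-chaperone class of 2 genes is not drawn.

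The classes differed in their counts. All 7 tested HSP70 genes fell, and HSP100 split into 2 genes that rose and 6 that fell. Among HSP90 genes 1 rose and 3 fell of 6 tested. Of 9 chaperonins 2 fell, and of 9 BAG genes 1 fell, with 0 rises in both. DnaJ genes moved both ways, with 7 rises (20.6%) and 6 falls (17.6%) among 34 tested. The heat stress factors did so as well, with 5 rises (27.8%) and 4 falls (22.2%) among 18. Small HSP had 3 rises (27.3%) and 2 falls (18.2%) among 11, where the rises depend on the filter on low values. Of all tested genes 22.8% rose and 23.5% fell. The shares of heat stress factors and small HSP lay near these values, and those of DnaJ genes somewhat below them. No test was run between classes, and differences between their counts are descriptions.

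**Figure D2:**
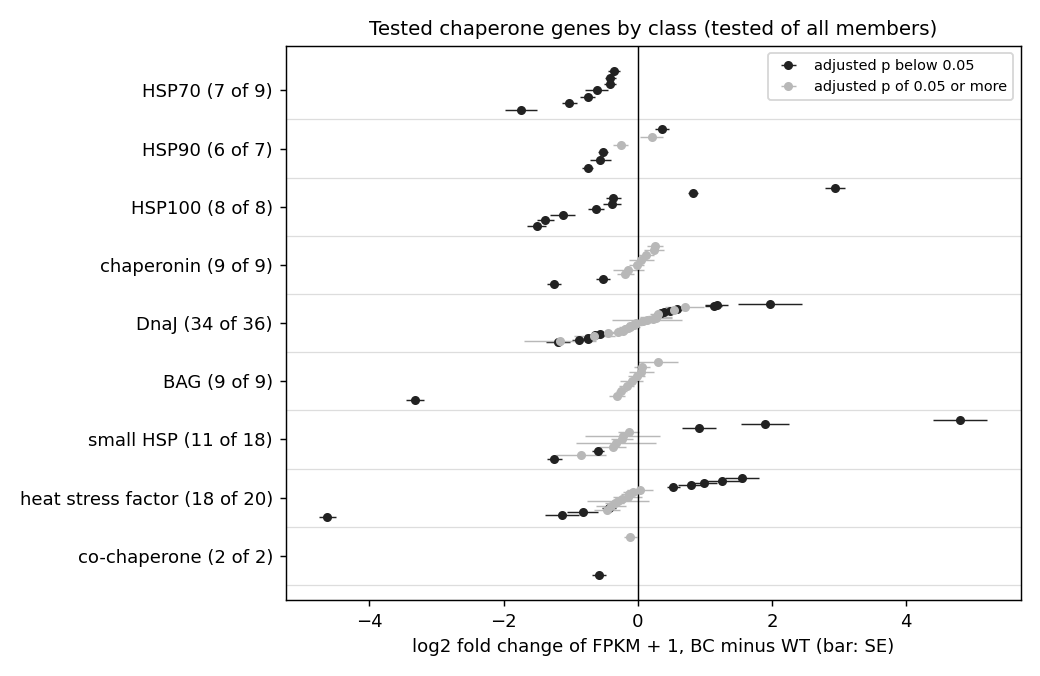
Log2 fold change of FPKM + 1, BC minus WT, for each tested gene of each class, with its standard error; black points passed a BH-adjusted p of 0.05 and grey points did not. HSP70 points lie between -1.75 and -0.35, while small HSP points reach 4.81.

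In summed level, HSP70 was the largest class. Its 9 genes added up to 1824 ± 89.7 FPKM in BC and 2827 ± 404 FPKM in WT (SD, n = 3 each), a BC to WT ratio of 0.645. They made up 32.7% of all chaperone FPKM in BC and 40.8% in WT. The chaperonins summed to 1004 ± 87.2 FPKM in BC and 1034 ± 68.5 FPKM in WT, and the DnaJ genes to 1427 ± 20.6 FPKM in BC and 1397 ± 76.4 FPKM in WT, both with overlapping samples. All members together held 0.448% of the summed FPKM of all genes in BC and 0.594% in WT.

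The markers searched for green tissue, genes of the photosynthetic machinery, moved as well. Of 70 tested among 81, 50 rose (71.4%) and 5 fell (7.14%), against 22.8% and 23.5% of all tested genes. Their summed level was 23539 to 28111 FPKM in BC and 7219 to 10918 FPKM in WT, with 7 of the markers listed at 0 in every sample. The part of this difference in the results on chaperones, plastid members included, was not tested. The search words for root markers took 43 genes, of which 29 are scarecrow-like. Of 30 tested, 10 rose (33.3%) and 7 fell (23.3%), against the same 22.8% and 23.5%. The summed level of the root markers was 5330 to 10882 FPKM in BC and 3433 to 3652 FPKM in WT. Most of that sum came from pathogenesis-related or Dau c 1 genes, with 7994 ± 2943 FPKM in BC and 2941 ± 93.0 FPKM in WT (SD, n = 3 each), of which 2 rose and 1 fell among 4 tested. Root phototropism protein 2 (DCAR_018580.v1.0) rose by 2.84 and root phototropism protein 3-like (DCAR_029190.v1.0) fell by 1.42. The 21 tested scarecrow-like genes had 6 rises (28.6%) and 5 falls (23.8%), near the shares of all tested genes. SHORT-ROOT (DCAR_010820.v1.0) had 8.04, 0.77 and 16.9 FPKM in BC and 1.42, 2.53 and 1.5 FPKM in WT, and a second SHORT-ROOT-like gene and the Casparian strip membrane gene were listed at 0 in all 6 samples. The part of the root markers in the results on chaperones was not tested either.

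HSP70 transcripts were lower in BC roots in every tested gene of the class. The most abundant chaperone transcript of the whole set was a cytosolic-type heat shock cognate 70 kDa protein 2-like gene (DCAR_014843.v1.0), with 1423, 1493 and 1577 FPKM in BC, against 2639, 1890 and 2417 FPKM in WT. The groups did not overlap, and WT replicate 2 was the lowest of its group. This gene fell by 0.62 on the log2 scale (SE 0.17, limma, BH-adjusted p = 0.0237) and alone held 26.8% of all chaperone FPKM in BC and 33.4% in WT. Its call was lost in 6 of 18 alternatives, without a filter on low values (adjusted p = 0.0584, limma), with the replicate block (0.05255) and without BC replicate 1 or 2 or WT replicate 1 or 3 (0.0820, 0.0601, 0.0789 and 0.0953). The 8 other HSP70 genes summed to 327 FPKM in BC and 512 FPKM in WT, a ratio of 0.638.

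A larger fold difference was found in a second gene of the same description (DCAR_005979.v1.0), which had 13.3, 25.2 and 21.7 FPKM in BC, against 57.1, 79.6 and 67.8 FPKM in WT. Its highest BC sample lay well below its lowest WT sample, and its log2 fold change was -1.75 (SE 0.24, limma, BH-adjusted p = 0.00158). The third heat shock cognate 70 kDa protein 2-like gene (DCAR_017744.v1.0) had 6.38, 7.31 and 6.66 FPKM in BC, against 15.4, 13.7 and 15.4 FPKM in WT, and fell by 1.02 (SE 0.11, limma, BH-adjusted p = 6.47e-04). A cognate gene without that number (DCAR_027648.v1.0) had 75.7, 84.4 and 72.5 FPKM in BC and 102, 94.3 and 101 FPKM in WT, and fell by 0.35, a call lost in 5 of 18 alternatives, among them median-ratio size factors and the replicate block (adjusted p = 0.0559 and 0.0572, limma).

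The stromal HSP70 genes, whose products fold and import proteins in plastids, fell in all 3 copies. Of these, DCAR_001745.v1.0 had 92.1, 90.6 and 97.8 FPKM in BC, against 172, 136 and 167 FPKM in WT (log2 fold change -0.75, SE 0.11, limma, BH-adjusted p = 0.00205). The other two, DCAR_006667.v1.0 and DCAR_025327.v1.0, fell by 0.41 each, with means of 61.5 and 66.7 FPKM in BC and 82.0 and 89.1 FPKM in WT. The 2 untested members, DCAR_017659.v1.0 and DCAR_027108.v1.0, stayed below 1 FPKM in all 6 samples. Across leave-one-out fits 4 to 7 HSP70 genes passed the test, with the lowest number reached without WT replicate 3, and the sign stayed negative in all alternatives.

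**Figure D3:**
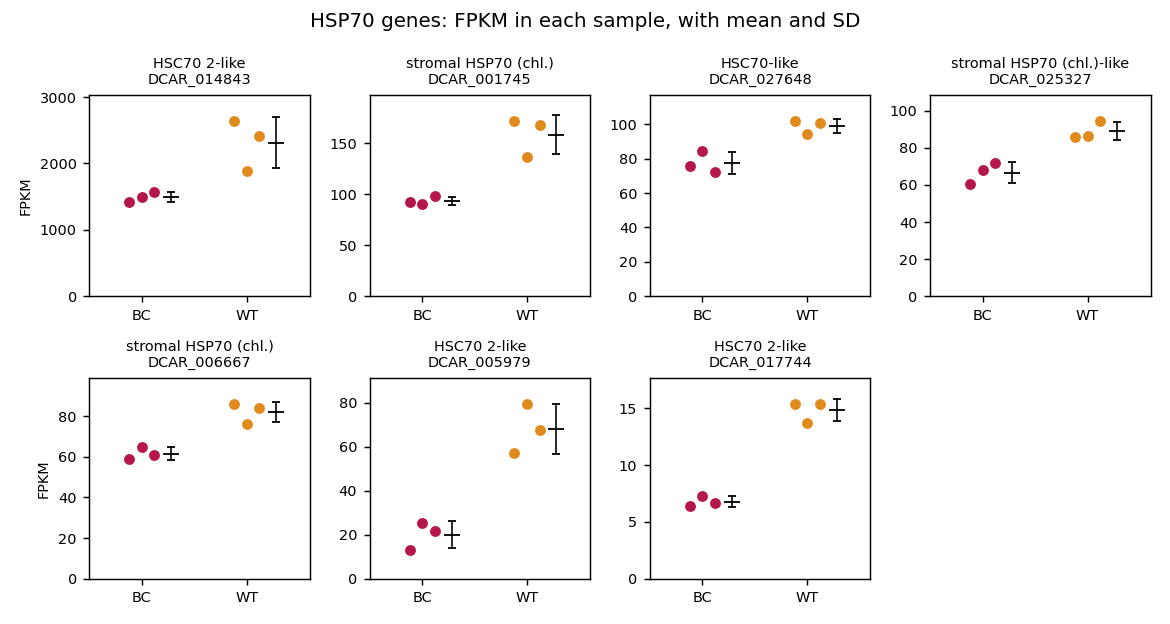
FPKM of the 7 tested HSP70 genes in each sample (points), with mean and SD of the 3 samples of a group beside them; each panel has its own linear axis from 0. In every panel the 3 BC points lie below the 3 WT points.

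Genes of HSP70 type that carry another description, and so fall outside the rule, moved both ways: of 15 tested, 7 fell (46.7%), 2 rose (13.3%) and 6 were not called, against 23.5% and 22.8% of all tested genes. The list also holds partner proteins such as the HSP70-HSP90 organizing protein. A heat shock 70 kDa protein gene (DCAR_019408.v1.0) had 1.53, 1.54 and 1.64 FPKM in BC, against 15.5, 6.98 and 11.8 FPKM in WT, and fell by 2.21 on the log2 scale (SE 0.26, limma, BH-adjusted p = 8.88e-04). The mitochondrial HSP70 gene DCAR_029280.v1.0 had 162, 166 and 170 FPKM in BC and 231, 200 and 226 FPKM in WT, a fall of 0.39 whose call was lost without WT replicate 3 (adjusted p = 0.0566, limma). In the opposite direction, a gene described first as hypothetical and second as a heat shock 70 kDa protein (DCAR_008146.v1.0) had 6.09, 7.59 and 8.17 FPKM in BC and at most 0.12 FPKM in WT. It passed the filter on low values through its BC levels alone. The luminal-binding protein gene DCAR_006504.v1.0, the HSP70 of the endoplasmic reticulum, had 196, 169 and 288 FPKM in BC and 132, 218 and 150 FPKM in WT and did not pass the test (adjusted p = 0.264, limma).

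HSP90 finishes the folding of kinases and receptors. Of its 6 tested genes 66.7% were called, against 46.4% of all tested genes. The class summed to 240 ± 18.1 FPKM in BC and 287 ± 10.3 FPKM in WT (SD, n = 3 each). Its most abundant entries over the 6 samples were a pair of gene models described as heat shock protein 90-3, which match the same RefSeq gene and moved in opposite directions. DCAR_017066.v1.0 had 81.2, 91.0 and 102 FPKM in BC, against 69.9, 66.9 and 74.8 FPKM in WT, while DCAR_017065.v1.0 had 50.7, 53.9 and 56.7 FPKM in BC, against 91.2, 86.8 and 94.0 FPKM in WT. The rise of 0.36 in DCAR_017066.v1.0 (limma, BH-adjusted p = 0.0289) was lost in 6 of 18 alternatives, whereas the fall of 0.74 in DCAR_017065.v1.0 (SE 0.08, adjusted p = 5.90e-04) kept its call in all of them. Both levels are uncertain as measures of that gene, since RSEM divides reads between similar sequences.

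The mitochondrial HSP90-6 gene (DCAR_021102.v1.0) had 48.5, 51.7 and 49.6 FPKM in BC, against 70.2, 74.7 and 70.9 FPKM in WT. Its groups were well apart, and it fell by 0.52 (SE 0.07, limma, BH-adjusted p = 0.00194). A heat shock protein 83-like gene of low level (DCAR_010658.v1.0) had 0.68, 0.63 and 0.80 FPKM in BC and 1.55, 1.26 and 1.74 FPKM in WT, a fall of 0.56 lost in 5 of 17 alternatives. It passed the filter on low values through its WT levels alone. Heat shock protein 90-2-like (DCAR_013256.v1.0) had a mean of 40.5 FPKM in BC and 48.4 FPKM in WT and was not called. Another 83-like gene (DCAR_010619.v1.0) was listed at 0 in all 6 samples.

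Each of the 8 HSP100 genes was called, in 2 directions. The 5 ClpB genes, which encode disaggregases, all fell and summed to 49.6 FPKM in BC and 81.3 FPKM in WT. ClpB4 of mitochondria (DCAR_022851.v1.0) had 6.18, 6.17 and 7.72 FPKM in BC, against 19.0, 17.8 and 20.1 FPKM in WT, a log2 fold change of -1.38 (SE 0.13, limma, BH-adjusted p = 2.76e-04). A mitochondrial ClpB3-like gene (DCAR_022849.v1.0), which lies 3 protein-coding genes away from it in the DH1 v3.0 assembly of RefSeq, had 2.53, 2.87 and 3.20 FPKM in BC, against 5.72, 9.03 and 7.74 FPKM in WT. It fell by 1.12, and its WT samples were more spread than its BC samples.

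The cytosolic-type ClpB1 gene (DCAR_010146.v1.0) is the relative of Arabidopsis HSP101, which that plant needs to acquire heat tolerance. It had 7.45, 7.23 and 8.63 FPKM in BC, against 12.5, 13.2 and 11.7 FPKM in WT, a fall of 0.62 (SE 0.12, limma, BH-adjusted p = 0.00599). The chloroplast ClpB3 genes DCAR_011054.v1.0 and DCAR_025412.v1.0 fell by 0.37 and 0.39, and their calls were lost in 6 and 11 of 18 alternatives, among them the replicate block (adjusted p = 0.0733 and 0.101, limma).

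The 3 ClpC and ClpD genes, unfolding partners of the plastid Clp protease, moved both ways. ClpD (DCAR_016324.v1.0), in Arabidopsis a gene of senescing and dry leaves, was the most abundant HSP100 gene under the rule, with 55.7, 54.9 and 56.9 FPKM in BC, against 30.3, 31.5 and 31.6 FPKM in WT. It rose by 0.82 (SE 0.07, limma, BH-adjusted p = 2.58e-04). A ClpC-like gene (DCAR_031770.v1.0) had 6.03, 6.79 and 7.84 FPKM in BC and 0.02, 0.02 and 0.03 FPKM in WT, and a ClpC1-like gene (DCAR_022314.v1.0) had 2.18, 2.55 and 1.75 FPKM in BC and 7.83, 7.57 and 8.47 FPKM in WT. Both passed the test, with log2 fold changes of 2.94 (SE 0.15, adjusted p = 2.07e-05, limma) and -1.51 (SE 0.15, adjusted p = 3.77e-04). The first of them was near 0 in all 3 WT samples and passed the filter on low values through its BC levels alone. A pair of genes of the same type, described as ClpA homolog CD4B and so outside the rule, fell. The first (DCAR_016352.v1.0) had 133, 141 and 141 FPKM in BC, against 277, 215 and 260 FPKM in WT, a level above that of ClpD, and fell by 0.84 (SE 0.11, limma, BH-adjusted p = 0.00138). The other (DCAR_025657.v1.0) had 48.1, 50.9 and 49.5 FPKM in BC, against 89.5, 76.5 and 83.4 FPKM in WT, and fell by 0.73.

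**Figure D4:**
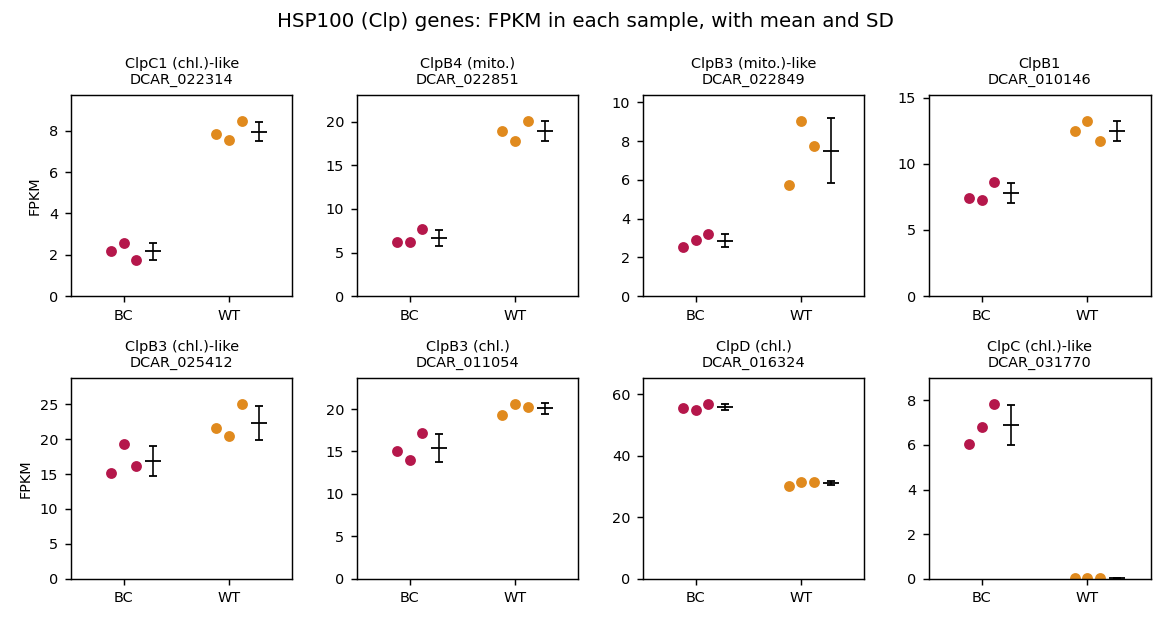
FPKM of the 8 HSP100 genes in each sample (points), with mean and SD of each group; panels run by log2 fold change and have their own linear axes from 0. The ClpB genes and the ClpC1-like gene lie lower in BC, ClpD and the other ClpC gene higher.

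Chaperonins, which enclose proteins in a barrel, changed little outside a pair of mitochondrial CPN60 subunits. CPN60-2 (DCAR_002283.v1.0) had 20.4, 20.01 and 24.0 FPKM in BC, against 55.3, 49.2 and 52.6 FPKM in WT, a log2 fold change of -1.25 (SE 0.10, limma, BH-adjusted p = 1.74e-04). A CPN60-2-like gene (DCAR_012624.v1.0) had 29.0, 28.1 and 30.2 FPKM in BC, against 45.6, 37.1 and 43.7 FPKM in WT, and fell by 0.51. Neither gene had overlapping groups. The other CPN60 genes, DCAR_016155.v1.0 and DCAR_030777.v1.0, had log2 fold changes of 0.26 and 0.24 and were not called.

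None of the 5 smaller chaperonins, which cap the barrel, was called. They summed to 914 FPKM in BC and 907 FPKM in WT, with log2 fold changes from -0.19 to 0.13. The most abundant of them, the 20 kDa chaperonin of chloroplasts (DCAR_028467.v1.0), had 450, 481 and 310 FPKM in BC and 440, 361 and 377 FPKM in WT, with BC replicate 3 the lowest of all. The list of chaperonin partners outside the rule includes the plastid CPN60 subunits called RuBisCO large subunit-binding proteins. Of its 9 tested genes 3 fell (33.3%) and 1 rose (11.1%), against 23.5% and 22.8% of all tested genes. The beta-subunit gene DCAR_016198.v1.0 had 52.1, 53.3 and 59.0 FPKM in BC, against 156, 153 and 160 FPKM in WT, and fell by 1.49 (SE 0.08, limma, BH-adjusted p = 2.63e-05).

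DnaJ proteins stimulate HSP70 and give it its clients, and this was the class with the most members. The most abundant, dnaJ GFA2 of mitochondria (DCAR_029634.v1.0), needed in Arabidopsis for the female gametophyte, had 398, 427 and 476 FPKM in BC, against 267, 314 and 288 FPKM in WT. It rose by 0.58 (SE 0.11, limma, BH-adjusted p = 0.00586) without overlap between groups. The largest rise was in a dnaJ 20-like gene of chloroplasts (DCAR_012675.v1.0), with 4.67, 7.03 and 1.09 FPKM in BC and 0.26, 0 and 0.26 FPKM in WT. Its BC samples spread widely, and its call (log2 fold change 1.97, SE 0.48, adjusted p = 0.0154) was lost with quantile normalization (0.0546) and without BC replicate 1 (0.0606, limma). This gene passed the filter on low values through its BC levels alone.

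A dnaJ 11-like gene of chloroplasts (DCAR_017599.v1.0) had 51.6, 37.2 and 52.1 FPKM in BC, against 18.8, 24.2 and 17.6 FPKM in WT, and rose by 1.17 (SE 0.18, limma, BH-adjusted p = 0.00227). A dnaJ 10-like gene (DCAR_013345.v1.0) had 54.7, 56.4 and 44.1 FPKM in BC, against 24.1, 24.4 and 20.4 FPKM in WT, and rose by 1.13. The 3 remaining rises, in DCAR_007108.v1.0, DCAR_025519.v1.0 and DCAR_007253.v1.0, were of 0.34 to 0.47 on the log2 scale, and each call was lost in 4 to 7 of 18 alternatives. With samples rescaled to equal totals, and likewise with the replicate block, 4 DnaJ genes rose.

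Among DnaJ genes that fell, dnaJ 16 (DCAR_024522.v1.0) had 6.58, 4.02 and 5.95 FPKM in BC, against 15.0, 12.4 and 13.8 FPKM in WT, a fall of 1.19 (SE 0.18, limma, BH-adjusted p = 0.00248). A dnaJ 10 gene (DCAR_003658.v1.0) had 106, 101 and 94.7 FPKM in BC, against 209, 158 and 190 FPKM in WT, and fell by 0.87, opposite in sign to its relative DCAR_013345.v1.0 above. The chloroplast dnaJ A6-like genes DCAR_029205.v1.0 and DCAR_021865.v1.0 had means of 68.1 and 25.8 FPKM in BC and 114 and 43.6 FPKM in WT. Both fell by 0.74. Another gene of this description (DCAR_001781.v1.0) was not called (log2 fold change -0.44, adjusted p = 0.0697, limma). All 6 falls in this class kept their call in all alternatives that could be run.

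The 21 tested DnaJ genes that were not called include a pair of chloroplast dnaJ 8-like entries (DCAR_016307.v1.0 and DCAR_016308.v1.0) with the same 6 values, which are a single observation. They also include a chloroplast dnaJ 11 gene (DCAR_026003.v1.0) with 6.87, 7.33 and 2.16 FPKM in BC and 24.9, 6.64 and 10.7 FPKM in WT, whose samples overlapped. DnaJ homologs whose description lacks the word chaperone lie outside the rule, and 9 of 26 tested fell while 1 rose, a called share of 38.5% against 46.4% of all tested genes. The most abundant of these, dnaJ protein homolog 2-like (DCAR_029778.v1.0), had 811, 911 and 914 FPKM in BC, against 2297, 1568 and 2331 FPKM in WT, a fall of 1.21 (SE 0.19, limma, BH-adjusted p = 0.00251). With them, DnaJ genes of either name summed to 3655 ± 73.3 FPKM in BC and 5593 ± 851 FPKM in WT (SD, n = 3 each), a ratio of 0.653, against 1.02 for the class under the rule.

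BAG genes were the class with the smallest share called, 11.1% against 46.4% of all tested genes, and it held 1 large fall. BAG family molecular chaperone regulator 6 (DCAR_008644.v1.0), in Arabidopsis a calmodulin-binding protein of plant defence, had 17.1, 15.2 and 14.9 FPKM in BC, against 173, 140 and 191 FPKM in WT. Every WT sample was several times above every BC sample, the WT to BC ratio of the means was 10.7, and the log2 fold change was -3.33 (SE 0.13, limma, BH-adjusted p = 7.14e-06). The 8 other BAG genes had log2 fold changes from -0.31 to 0.30. BAG 7 (DCAR_020192.v1.0), the most abundant, had 177, 185 and 198 FPKM in BC and 234, 213 and 217 FPKM in WT, which did not overlap but missed the threshold (adjusted p = 0.0556, limma).

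Small HSP were mostly low in these roots. Of 18 genes 7 did not reach 1 FPKM in 3 samples and were not tested, and the class summed to 138 ± 15.9 FPKM in BC and 133 ± 4.23 FPKM in WT (SD, n = 3 each). Both genes described as 22.0 kDa heat shock protein-like, a type that in Arabidopsis sits in the endoplasmic reticulum, rose. DCAR_031996.v1.0 had 31.4, 19.8 and 65.4 FPKM in BC, against 0.41, 0.14 and 0.27 FPKM in WT, a BC to WT ratio of the means of 142 and a log2 fold change of 4.81 (SE 0.40, limma, BH-adjusted p = 1.83e-04). DCAR_029183.v1.0 had 2.23, 1.42 and 5.56 FPKM in BC and was listed at 0 in all 3 WT samples (adjusted p = 0.00586). In both, BC replicate 3 was the highest and BC replicate 2 the lowest sample of its group.

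Of 4 tested class I genes, which are cytosolic, 1 rose and 1 fell. DCAR_021992.v1.0, a 17.8 kDa class I gene, had 1.82, 1.6 and 3.52 FPKM in BC and 0.59, 1.0 and 0.58 FPKM in WT and rose by 0.91, a call lost in 5 of 17 alternatives. An 18.2 kDa class I gene (DCAR_011766.v1.0), the most abundant small HSP over the 6 samples but below the 22.0 kDa gene DCAR_031996.v1.0 in the BC mean, had 36.1, 38.2 and 32.1 FPKM in BC, against 53.2, 54.7 and 53.5 FPKM in WT, and fell by 0.59 (SE 0.09, limma, BH-adjusted p = 0.00249). DCAR_011765.v1.0, which matches the same RefSeq gene, had 29.0, 33.6 and 22.96 FPKM in BC and 35.0, 29.0 and 36.8 FPKM in WT and was not called.

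The 17.4 kDa class III gene (novel2619), of a type found in the nucleus in Arabidopsis, had 7.98, 8.97 and 7.37 FPKM in BC, against 20.6, 20.8 and 20.1 FPKM in WT, and fell by 1.24 (SE 0.11, limma, BH-adjusted p = 2.29e-04). Chloroplast small HSP, which strong heat induces in many plants, were low. DCAR_027781.v1.0 had 4.17, 2.72 and 0.93 FPKM in BC and 5.19, 3.75 and 6.41 FPKM in WT and was not called (adjusted p = 0.106, limma). The others were at or near the bottom of the scale. DCAR_008975.v1.0 had 1.09, 0.50 and 0.51 FPKM in BC, DCAR_024078.v1.0 had 0.20, 0.20 and 0.21 FPKM in BC, both were listed at 0 in all of WT, and DCAR_026487.v1.0 was listed at 0 in all 6 samples. The 3 small HSP genes that rose passed the filter on low values through their BC levels and would not have passed on WT levels alone, so their number is set in part by the filter. With no filter 5 small HSP genes rose, and with a filter at 5 FPKM 1 did.

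Heat stress transcription factors bind the promoters of chaperone genes. Class A factors activate them, and class B factors lack the activation domain and mostly act as repressors or partners. Of 4 class B genes 3 rose (75.0%) and 0 fell, against 22.8% and 23.5% of all tested genes. A B-3-like gene (DCAR_009066.v1.0) had 5.27, 6.46 and 9.0 FPKM in BC, against 1.03, 2.17 and 1.88 FPKM in WT, and rose by 1.55 (SE 0.25, limma, BH-adjusted p = 0.00286). A second (DCAR_020496.v1.0) had 11.9, 20.6 and 9.94 FPKM in BC, against 7.13, 3.46 and 5.14 FPKM in WT, and rose by 1.26, a call lost with the replicate block (adjusted p = 0.0545, limma) and without WT replicate 3 (0.0553). B-2b-like (DCAR_018186.v1.0) had 53.2, 60.3 and 61.2 FPKM in BC and 42.8, 40.7 and 36.5 FPKM in WT, a rise of 0.53 (SE 0.10, adjusted p = 0.00567). B-4 (DCAR_019444.v1.0) was not called, with 9.15, 4.54 and 14.1 FPKM in BC and 9.53, 18.8 and 6.58 FPKM in WT.

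Of 12 tested class A genes 2 rose (16.7%) and 3 fell (25.0%), against 22.8% and 23.5% of all tested genes. The largest fall of the whole set was in an A-4b-like gene (novel2042), with 0.47, 0.65 and 0.79 FPKM in BC, against 38.3, 40.1 and 39.5 FPKM in WT, a log2 fold change of -4.63 (SE 0.13, limma, BH-adjusted p = 1.83e-06). All 3 BC samples were below 1 FPKM, while the 3 WT samples lay closely together, so the gene passed the filter on low values through its WT levels alone. The other A-4b-like gene (DCAR_013287.v1.0) had 4.4, 3.85 and 4.71 FPKM in BC and 5.71, 6.49 and 5.08 FPKM in WT and was not called (adjusted p = 0.0915).

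Genes described as A-7a-like, a heat-induced activator in Arabidopsis, moved apart. DCAR_002703.v1.0, which had the highest mean of all factors over the 6 samples but not over the BC samples, had 22.2, 33.6 and 35.5 FPKM in BC, against 81.4, 47.8 and 75.4 FPKM in WT, and fell by 1.13 (SE 0.25, limma, BH-adjusted p = 0.0112). DCAR_031338.v1.0 had 11.1, 16.9 and 13.3 FPKM in BC, against 6.19, 8.58 and 7.65 FPKM in WT, and rose by 0.79. DCAR_031340.v1.0, of the same description, had 1.80, 1.31 and 1.09 FPKM in BC and 0.33, 0.10 and 0.17 FPKM in WT and rose by 0.99. This last gene passed the filter on low values through its BC levels alone. An A-3-like gene (novel1330) fell by 0.82, with means of 2.64 FPKM in BC and 5.45 FPKM in WT, and its call was lost without BC replicate 1 or 2 or WT replicate 2 or 3. DCAR_009185.v1.0, which matches the same RefSeq gene, was not called. Class C-1-like gene DCAR_006741.v1.0 had 25.8, 29.2 and 32.4 FPKM in BC and 40.4, 38.5 and 39.5 FPKM in WT, a fall of 0.43 lost without WT replicate 3 (adjusted p = 0.0579, limma).

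**Figure D5:**
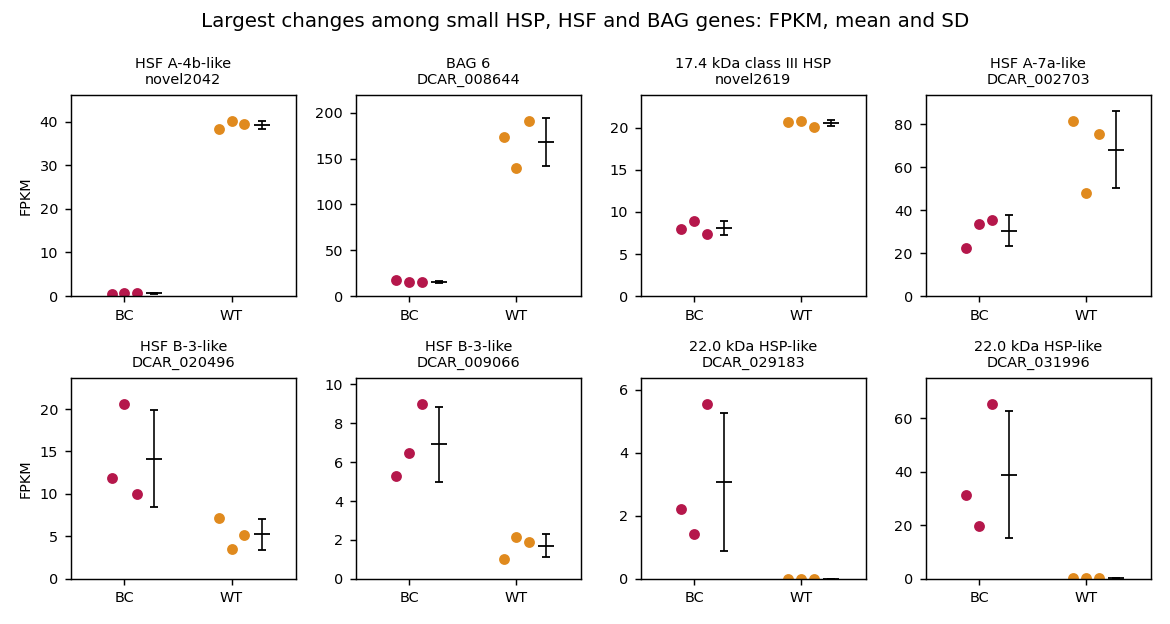
FPKM in each sample (points), with mean and SD of each group, for the 4 largest falls and the 4 largest rises among called small HSP, heat stress factor (HSF) and BAG genes, on linear axes from 0. The upper row is lower in BC without overlap, and the lower row higher in BC, where BC samples spread most in the 22.0 kDa genes.

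Factors named differently, outside the rule, included HSF24-like (DCAR_010894.v1.0), which had 33.2, 30.1 and 34.7 FPKM in BC, against 16.0, 18.2 and 17.9 FPKM in WT, and rose by 0.88 (SE 0.10, limma, BH-adjusted p = 7.42e-04). A heat shock factor-binding protein 1-like gene (DCAR_002813.v1.0), of a family that dampens these factors, had 132, 112 and 98.3 FPKM in BC, against 68.9, 74.3 and 57.9 FPKM in WT, and rose by 0.76. Both HSF8 genes were not called, and of the 5 genes of this list 2 rose and 0 fell. Of all tested genes 22.8% rose and 23.5% fell, and the list is too short for a comparison with these shares.

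Co-chaperones were the smallest class. HscB (DCAR_013451.v1.0), which helps to place iron-sulfur clusters in mitochondria, had 8.27, 8.86 and 8.18 FPKM in BC, against 13.1, 13.4 and 12.8 FPKM in WT, and fell by 0.58 (SE 0.10, limma, BH-adjusted p = 0.00419). The activator of the HSP90 ATPase (DCAR_017036.v1.0) had 43.0, 50.3 and 50.4 FPKM in BC and 50.6, 54.8 and 49.6 FPKM in WT and was not called. Sorting all members by the compartment in their description, a view chosen after their values were seen, gave 1 rise (8.33%) and 6 falls (50%) among 12 mitochondrial genes and 4 rises (17.4%) and 8 falls (34.8%) among 23 tested chloroplast genes, against 22.8% and 23.5% of all tested genes. The mitochondrial falls were those of both ClpB genes, the CPN60-2 pair, HSP90-6 and HscB, and the rise was GFA2.

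Folding genes outside the rule were counted by list, without a test between lists. In the list searched for folding genes of the endoplasmic reticulum, 4 of 16 tested genes rose (25.0%) and 2 fell (12.5%), against 22.8% and 23.5% of all tested genes. Its search words do not separate compartments. They also caught a protein disulfide-isomerase described as chloroplastic (DCAR_012259.v1.0), which was not called. Calreticulin (DCAR_025274.v1.0), a calcium-binding lectin chaperone, had 334 ± 44.8 FPKM in BC and 241 ± 21.5 FPKM in WT (SD, n = 3 each), a rise of 0.46 lost in 6 of 18 alternatives. Calreticulin-3-like (DCAR_030005.v1.0) rose by 0.52, and a gene described as endoplasmin homolog (DCAR_013875.v1.0), the type of HSP90 found in this compartment, had 22.99, 26.9 and 19.5 FPKM in BC, against 38.3, 32.4 and 39.7 FPKM in WT, and fell by 0.65 (SE 0.14, limma, BH-adjusted p = 0.0100). The more abundant endoplasmin homolog (DCAR_023014.v1.0) had 124, 113 and 181 FPKM in BC and 145, 149 and 147 FPKM in WT and was not called (log2 fold change -0.11, adjusted p = 0.633, limma).

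In the cytosolic folding list 5 of 34 tested genes rose (14.7%) and 8 fell (23.5%). Its search words also caught genes of other function, such as the protease gene DCAR_021745.v1.0 with the largest rise (1.37). T-complex protein 1 subunit delta (DCAR_023227.v1.0), of the cytosolic chaperonin, had 34.8 ± 3.61 FPKM in BC and 74.6 ± 4.401 FPKM in WT (SD, n = 3 each) and fell by 1.08 (SE 0.10, limma, BH-adjusted p = 3.15e-04). The 9 other T-complex protein 1 subunit genes were not called, with log2 fold changes from -0.46 to 0.05. Peptidyl-prolyl isomerases, which turn proline bonds, gave 9 rises (18.4%) and 14 falls (28.6%) among 49 tested. FKBP17-2 of chloroplasts (DCAR_014010.v1.0) rose by 2.38, with 22.6, 19.0 and 20.4 FPKM in BC and 2.60, 4.18 and 2.86 FPKM in WT, and PASTICCINO1 (DCAR_028802.v1.0), which in Arabidopsis acts in cell division and fatty acid elongation, fell by 1.34.

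Genes of proteases and aggregate clearance gave 7 rises and 15 falls among 59 tested, a called share of 37.3% against 46.4% of all tested genes. Several genes were described as protease Do-like 14, and most were not called, with log2 fold changes from -0.15 to 0.28. Those called moved apart. DCAR_026566.v1.0 had 9.67, 9.59 and 10.4 FPKM in BC and 0.08, 0.28 and 0.34 FPKM in WT. DCAR_001924.v1.0 had 18.3, 16.1 and 17.8 FPKM in BC and 31.95, 35.1 and 34.1 FPKM in WT. Of these, DCAR_026566.v1.0 passed the filter on low values through its BC levels alone. The list searched for other genes of the heat response gave 5 rises (35.7%) and 2 falls (14.3%) among 14 tested, against 22.8% and 23.5% of all tested genes. Its search words also caught genes of other description, such as a WVD2-like 6 gene (DCAR_003097.v1.0), which fell by 1.44. The rises in the ascorbate peroxidase entries DCAR_000433.v1.0 and DCAR_015567.v1.0 have the same values in every sample. They are a single observation, though the 5 rises count both. Multiprotein-bridging factor 1c (DCAR_017758.v1.0) was not called (log2 fold change 0.16, adjusted p = 0.622, limma). Galactinol synthase 1-like (DCAR_002912.v1.0), the first enzyme toward raffinose sugars, had 4.70, 6.90 and 1.91 FPKM in BC and 0, 0.19 and 0 FPKM in WT (log2 fold change 2.26, SE 0.36, limma, BH-adjusted p = 0.00293). It passed the filter on low values through its BC levels alone. Another galactinol synthase 1-like gene (DCAR_002910.v1.0) had a log2 fold change of -0.36 and was not called. A catalase-like gene (DCAR_013924.v1.0) had 2579, 2894 and 1461 FPKM in BC, against 1209, 612 and 916 FPKM in WT. Its rise of 1.34 was lost without BC replicate 1 or 2 or WT replicate 3 (adjusted p = 0.0686, 0.0527 and 0.0565, limma). A catalase gene of low level (DCAR_009536.v1.0) fell by 0.86, with means of 3.09 FPKM in BC and 6.37 FPKM in WT. Catalase-like DCAR_022934.v1.0 was not called (log2 fold change 0.24).

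Domain annotation in the same table, which the rule did not use, went with the class for most members. All 18 small HSP genes carried the HSP20 domain, all 9 HSP70 genes the HSP70 domain, all 36 DnaJ genes the DnaJ domain, 6 of 7 HSP90 genes the HSP90 domain and 17 of 20 heat stress factors the HSF DNA-binding domain. The domains searched for their class were found in 7 of 8 HSP100 genes, 7 of 9 BAG genes and all 9 chaperonins. Those searched for HSP100 are not particular to it, since 230 genes of the table hold them, 223 of these outside the rule. The rule did not take every gene with such a domain: 15 more genes held the HSP20 domain, and of the 8 of them that were tested 1 rose and 2 fell. Of 25 tested genes with an HSP70 domain outside the rule, 4 rose and 10 fell. Over all tested genes 22.8% rose and 23.5% fell.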

How the data were processed

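RNA-seq was done on fleshy roots, with mRNA libraries primed by random hexamers, per the labels' protocols. A single deposited table holds the authors' FPKM for each gene and sample, given to 2 decimals. RSEM is named, without a version, per the submitters' processing notes; aligner, genome build and annotation: not given in the sources used here. Since RSEM splits reads among similar genes, levels of close copies are uncertain. Columns were matched to samples by the samples' descriptions.

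log2(FPKM + 1) was fitted with limma 3.58.1 in R 4.3.3 (lmFit, eBayes with a trend, two-sided) over the 21033 genes that reached 1 FPKM in 3 or more samples, with Benjamini-Hochberg adjustment. On this scale changes of low genes are understated. A gene below 1 FPKM throughout a group passes the filter on low values only through the other group. Counts of rises and falls therefore depend in part on the filter. The script was tested on simulated data. FPKM are not counts; read depth is unknown, and counting intervals could not be given.

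Classes were assigned by search words. Members, lists and tests were chosen with earlier results of these data known. Named members were, per class, the 2 largest rises and falls among called genes, the most abundant gene, called small HSP and heat stress factors of at least 5 FPKM, and genes below 0.1 FPKM throughout a group. Other members and all genes outside the rule were chosen for mention after their values were seen. RefSeq names and gene order are of the DH1 v3.0 assembly, which 104 of the 118 members matched. Figures were drawn with matplotlib 3.10.9.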

Additional observations from a re-analysis of the deposited data

How the results depend on the processing

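The fit was repeated with a pseudocount of 0.1 or 5, with the filter dropped or set at 5 FPKM, with totals equalised, with size factors (median of ratios), with quantile normalization, with 2 other variance models (no trend, robust), with the replicate block, without numbered IDs, without genes near 0 in a whole group, without each sample in turn, and with regulators and binding partners left out of the class counts. Counting members once per RefSeq gene or value set was added after the data were seen and gave 18 rises and 31 falls. Of the 50 called members 34 kept their call in all alternatives that could be run, and 0 changed sign.

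Small HSP rises numbered 5 with no filter and 1 with the filter at 5 FPKM, and small HSP falls 1 without numbered IDs. HSP90 rises numbered 0 and DnaJ rises 4 with samples rescaled to equal totals, and HSP100 rises 1 without genes near 0 in a whole group. The 20 kDa chaperonin gene DCAR_028467.v1.0, not called, changed sign to -0.04793 with equal totals and -0.06617 with quantile normalization, and ranged from -0.067 to 0.2503 with 1 sample left out, at -0.01954 without BC replicate 1, -0.067 without BC replicate 2 and -0.004082 without WT replicate 2. The cause was not tested.

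With 1 sample left out, rises ranged from 3446 to 4873 and falls from 3193 to 5203 over all genes, and from 12 to 18 and 24 to 33 over members. The ranges were 4 to 8 and 6 to 7 in DnaJ, 2 and 4 to 5 in HSP100, 0 and 4 to 7 in HSP70, 0 to 1 and 2 to 3 in HSP90, 2 to 3 and 2 to 3 in small HSP, and 0 and 2 in chaperonins. Single samples moved counts most as follows: 3193 falls over all genes and 4 HSP70 falls without WT replicate 3, 4 DnaJ rises without WT replicate 3 or BC replicate 1, and 0 HSP90 rises without any of BC replicates 2 and 3 or WT replicates 1 to 3.

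The replicate block gave 13 rises and 27 falls over members and 4 DnaJ rises. Deviations of same-numbered samples from their group means correlated at 0.196, -0.356 and -0.195 for numbers 1 to 3, and not every sample correlated best with its own number. Deviations from a mean of 3 samples are tied to each other, so these values cannot show whether samples were collected or processed in pairs. Read depth is unknown, which limits what can be said of genes below 1 FPKM.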
